A study of Homo sapiens with 6 samples.

Results

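Translation initiation factors (EIF) and elongation factors (EEF) are the proteins that start and extend the reading of an mRNA by the ribosome. Their genes were taken from the expression table of A673 and SKNMC cells as the protein-coding genes whose symbol starts with EIF or EEF followed by a digit. This rule found 65 of the 27420 listed genes, 56 EIF genes and 9 EEF genes, on 20 chromosomes. Both lines were derived from Ewing sarcoma, a tumour driven by a fusion of EWSR1 with an ETS factor gene such as FLI1. Each line was kept for 6 h with the DMSO vehicle or with THZ1 at 50 or 200 nM, and 1 RNA-seq library was made per line and condition, 6 libraries in all. THZ1 is a covalent inhibitor of CDK7, the kinase of the general transcription factor TFIIH that phosphorylates RNA polymerase II. With 1 library per condition there was no replicate error, so no value below has an SD or a p-value, and every fold change compares 2 libraries rather than 2 conditions. Every group shares the 6 h of culture with vehicle or drug, and untreated cells are not analysed here.

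Initiation begins when eIF2, loaded with GTP and initiator tRNA, joins the small ribosomal subunit together with eIF1, eIF1A, eIF3 and eIF5. The eIF4F complex, made of the cap-binding protein eIF4E, the scaffold eIF4G and the RNA helicase eIF4A, brings this assembly to the capped end of the mRNA. After the start codon is found, eIF5 promotes GTP hydrolysis on eIF2 and eIF5B joins the large subunit, and eIF2B later reloads eIF2 with GTP. In elongation, eEF1A delivers aminoacyl-tRNA, the eEF1B subunits reload eEF1A, and eEF2 moves the ribosome by a codon. Many genes for elongation factors, eIF3 subunits and ribosomal proteins carry a 5′ terminal oligopyrimidine (TOP) tract, through which mTOR signalling controls their translation.

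Values are FPKM, read fragments scaled by transcript length and library size, so each is a share of its library and not an amount of RNA per cell. A decrease of all RNA per cell would leave FPKM unaltered, and fewer cells and less RNA per cell cannot be told apart. Log2 fold changes are log2 of FPKM plus 1 against the same in the DMSO library of the line, which understates the change of genes at a few FPKM. A gene was called active in a line when it was above 1 FPKM in the DMSO library of that line, which held for 11077 genes in A673 and 11896 in SKNMC. The marker genes of the tumour were all present in the DMSO libraries, CD99 at 504 and 313 FPKM, NKX2-2 at 14.8 and 37.6 FPKM, NR0B1 at 58.6 and 25.2 FPKM and FLI1 at 31.5 and 27.3 FPKM in A673 and SKNMC. The 77 ribosomal protein genes made up 13.6%, 16.1% and 17.7% of the FPKM sum of the A673 libraries with DMSO, 50 nM and 200 nM THZ1, and 19.0%, 24.7% and 29.7% of that of SKNMC, so other genes shared a smaller remainder at the higher doses. The part of this in the values below was not tested, and values rescaled to those genes are given.

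Of the 65 genes, 58 were active in both lines. EIF5AL1 was active only in A673 and EIF4E3 only in SKNMC, and EEF1A2, EIF3CL, EIF4E1B, EIF1AY and the readthrough EEF1E1-BLOC1S5 were active in neither. These are abundant mRNAs: 52 were above 10 FPKM and 25 above 100 FPKM in both DMSO libraries. Without EEF1A1, the members made up 2.11%, 2.17% and 2.18% of the FPKM sum in A673 with DMSO, 50 nM and 200 nM THZ1, and 1.93%, 2.03% and 2.07% in SKNMC. Within this nearly level sum the classes moved apart: EIF genes made up 1.55%, 1.51% and 1.49% in A673 and 1.34%, 1.28% and 1.22% in SKNMC, while EEF genes without EEF1A1 made up 0.559%, 0.654% and 0.690% in A673 and 0.597%, 0.759% and 0.849% in SKNMC. EEF1A1, which encodes the main form of eEF1A, was the most abundant member, at 3646, 4003 and 4599 FPKM in A673 with DMSO, 50 nM and 200 nM THZ1. It was at 4400 FPKM in SKNMC with DMSO and was listed at 0 in both THZ1 libraries of SKNMC. It was left out of the members' counts and medians in every comparison that uses those libraries, and stayed among all active genes, where it is 1 of the 11896 in SKNMC.

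Most translation factor genes stayed within 1.5-fold of the DMSO library of their line, and fewer of them were decreased than of active genes in general. At 50 nM in A673, 4 of 59 active members were at least 2-fold lower, against 15.9% of all active genes. At 200 nM in A673 the count was 7 of 59, against 25.3%. In SKNMC it was 2 of 58 at 50 nM, against 15.8%, and 12 of 58 at 200 nM, against 27.3%. No member was at least 2-fold higher in any of the 4 comparisons, as were 0.343%, 0.126%, 0.471% and 0.462% of active genes in the same order. At 1.5-fold, 9 members were lower at 50 nM in A673 (against 31.8%), 12 at 200 nM (against 41.1%), and 13 and 22 in SKNMC (against 33.5% and 48.0%). At least 1.5-fold higher were 0 members in the first 3 comparisons, against 1.78%, 1.7% and 2.43% of active genes, and 1 in SKNMC at 200 nM, against 2.81%.

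The median log2 fold change of the active members was −0.10 and −0.11 at 50 and 200 nM in A673, and −0.14 and −0.32 in SKNMC. Over all active genes it was −0.27 and −0.40 in A673, and −0.32 and −0.55 in SKNMC. These values depend on how libraries are scaled to each other. When the 75th percentile of active genes was set equal within a line, all active genes had medians between −0.07 and −0.06 and the members had medians of 0.15, 0.24, 0.12 and 0.16. When the ribosomal protein median was set equal instead, all active genes had medians between −1.01 and −0.48 and the members −0.34, −0.48, −0.46 and −0.85. The members' median stood 0.18, 0.29, 0.18 and 0.22 above that of all active genes as deposited, and between 0.15 and 0.31 above it under these 2 scalings. Both scalings multiply each library by a constant, so this distance could hardly change under them. Among genes above 10 FPKM with DMSO, the distance was smaller, at 0.13, 0.20, 0.11 and 0.17. With no filter on low values the order turned, and the members' median stood 0.03, 0.04, 0.00 and 0.10 below that of all genes, a set that then includes genes at levels where the 1 FPKM added holds the log2 fold change near 0.

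**Figure D1:**
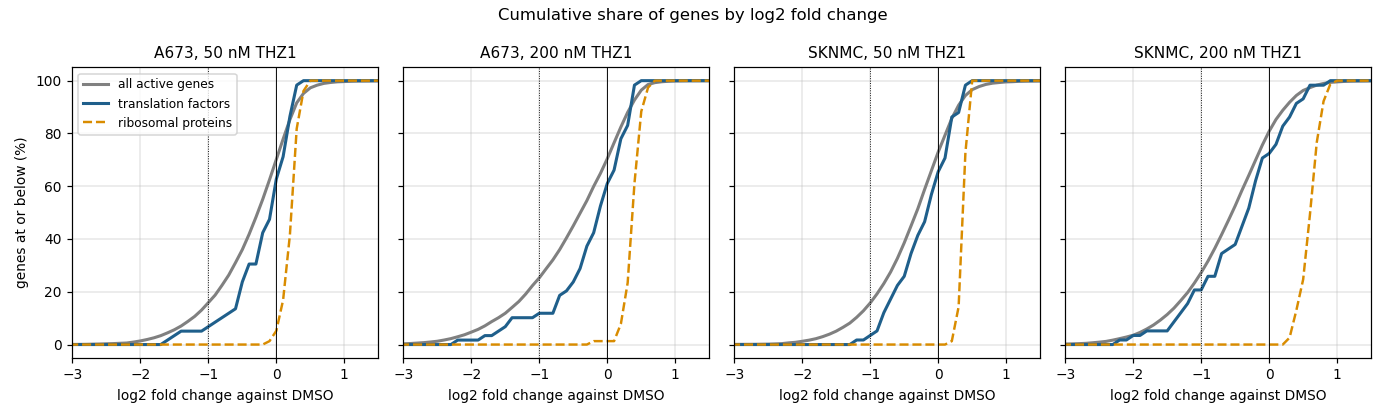
Cumulative share of genes (percent, vertical axis) at or below each log2 fold change against DMSO (horizontal axis) in the 4 comparisons, for all active genes, the active translation factor genes and the 77 ribosomal protein genes. Up to a log2 fold change of 0 the curve of the translation factors lies between the other curves, and above 0 it crosses that of all active genes. The translation factors have medians of −0.10, −0.11, −0.14 and −0.32 against −0.27, −0.40, −0.32 and −0.55 for all active genes and 0.21, 0.37, 0.37 and 0.60 for the ribosomal protein genes.

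Over the 57 members active in both lines, EEF1A1 left out, 30 were lower than DMSO in all 4 comparisons (52.6%, against 52.9% of all 10574 genes active in both lines) and 14 were higher in all 4 (24.6%, against 10.0%). The 2 doses of a line share its DMSO library, so these counts do not rest on 4 independent comparisons. The 14 were EEF1G, EEF2, EIF5A, EIF4G2, EEF1D, EEF1B2, EIF3L, EIF3I, EIF3K, EIF3H, EIF3F, EIF3G, EIF2D and EIF3C, of which 7 encode subunits of eIF3 and 4 encode eEF2 or the subunits of the eEF1B exchange complex. At the other end, 7 members were at least 1.5-fold lower in all 4 comparisons (12.3%, against 19.8%), namely EIF5, EIF2S2, EIF4E, EIF2B4, EIF1AD, EIF1B and EIF4ENIF1. EIF5 and EIF1B were at least 2-fold lower in all 4 (3.51%, against 8.7%). The counts are for values as deposited. With the 75th percentile scaling, 12 members were lower and 24 higher in all 4, and with the ribosomal protein scaling 52 were lower and 0 higher. Each scaling shifts all genes of a library, and the share of all genes was not counted under it. These rescaled counts therefore do not set the members apart. The 12 members lower with the 75th percentile scaling were EEF1E1, EEF2K, EIF1AD, EIF1B, EIF2AK2, EIF2B4, EIF2S2, EIF3J, EIF4E, EIF4EBP2, EIF4ENIF1 and EIF5. They were below DMSO as deposited and with the ribosomal protein scaling by arithmetic, since both gave these members lower values than the 75th percentile scaling.

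**Figure D2:**
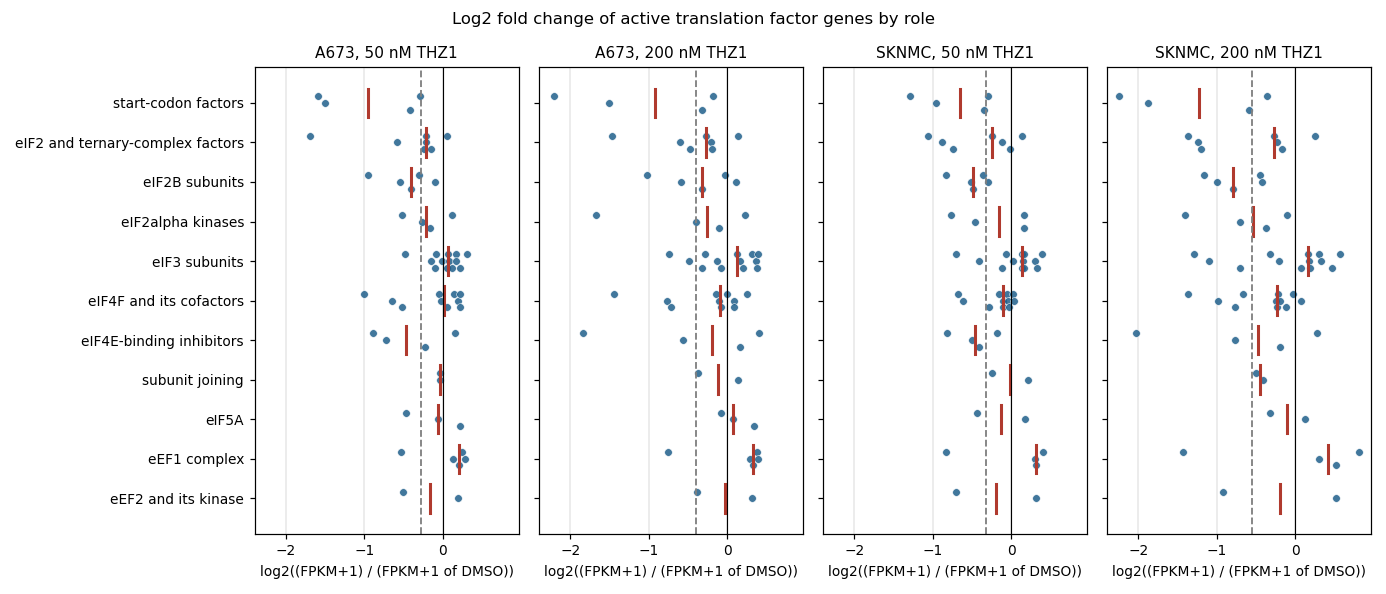
Log2 fold change against DMSO (horizontal axis) of each active translation factor gene, 1 point per gene, by role of its protein (rows) in the 4 comparisons (panels); red bars mark the median of a role, the dashed line the median of all active genes and the solid line 0. The genes listed as start-codon factors, EIF1AD included, all lie below 0. The eIF3 subunits lie on both sides of 0 and the eEF1 genes lie above 0 except EEF1E1, all as deposited.

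The 4 active genes listed as start-codon factors, EIF1AD included, were below DMSO in all 16 gene and comparison values as deposited and in 13 of 16 with the 75th percentile scaling. EIF1AD and EIF1B held the 2 lowest mean log2 fold changes of all members. EIF1 and EIF1AX lay between 0.15 below and 0.21 above the median of all active genes in the 4 comparisons. Of all active genes, 70.1% and 70.4% in A673 and 73.0% and 80.8% in SKNMC were below DMSO at 50 and 200 nM as deposited. EIF1AD, whose product is a nuclear protein with an eIF1A-like domain and for which a role in initiation is not established, lies at chr11:65764015-65769647 (hg19, minus strand). It was at 25.7, 7.88 and 4.79 FPKM in A673 with DMSO, 50 nM and 200 nM THZ1, and at 22.3, 11.0 and 3.92 FPKM in SKNMC. The level was thus lower at each higher dose in both lines, down to 18.6% of the DMSO level in A673 and 17.6% in SKNMC, with log2 fold changes of −1.59 and −2.20 in A673 and −0.96 and −2.25 in SKNMC. At 200 nM, 2.92% of active genes in A673 and 1.98% in SKNMC had a lower log2 fold change than EIF1AD. Its annotated span overlaps BANF1 on the other strand, and whether reads were counted by strand is not given in the sources used here.

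EIF1B encodes a paralogue of eIF1, the factor that guards the choice of start codon, and lies at chr3:40351174-40353915 (plus strand). It was at 23.3, 7.61 and 7.56 FPKM in A673 and at 33.0, 12.9 and 8.28 FPKM in SKNMC with DMSO, 50 nM and 200 nM THZ1. The A673 levels at 50 and 200 nM were the same to the first decimal, while SKNMC was lower at 200 than at 50 nM, with log2 fold changes of −1.50 and −1.51, and −1.29 and −1.87. EIF1 itself was at 296, 221 and 237 FPKM in A673 and at 455, 357 and 352 FPKM in SKNMC. Within a library, where scaling cancels, the ratio of EIF1 to EIF1B was therefore 12.7, 29.0 and 31.3 in A673 and 13.8, 27.6 and 42.5 in SKNMC. EIF1AX, the X-linked gene of eIF1A, differed less from DMSO, with log2 fold changes of −0.30 and −0.18 in A673 and −0.30 and −0.59 in SKNMC.

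Among the factors of the eIF2 ternary complex, EIF5 had the lowest log2 fold change in 3 of the 4 comparisons, and EIF2S2 had it in SKNMC at 200 nM. eIF5 is the GTPase-activating protein of eIF2, and its gene lies at chr14:103799880-103811362 (plus strand). EIF5 was at 178, 54.2 and 63.8 FPKM in A673 and at 121, 57.3 and 52.2 FPKM in SKNMC with DMSO, 50 nM and 200 nM THZ1. All 4 THZ1 libraries were below both DMSO libraries and close to each other, so the decrease was already there at 50 nM, with log2 fold changes of −1.69 and −1.46 in A673 and −1.06 and −1.20 in SKNMC.

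The genes of the eIF2 trimer itself differed between the lines. EIF2S1, for the alpha subunit that stress kinases phosphorylate, was at 155, 133 and 135 FPKM in A673 and at 88.6, 52.7 and 36.9 FPKM in SKNMC. EIF2S2, for the beta subunit, was at 68.3, 45.2 and 44.7 FPKM in A673 and at 64.3, 34.5 and 24.4 FPKM in SKNMC. EIF2S3, for the gamma subunit that binds GTP and initiator tRNA, was at 76.8, 69.1 and 63.6 FPKM in A673 and at 199.5, 184 and 170.0 FPKM in SKNMC. The gamma subunit's mRNA thus stayed near its DMSO level in both lines. That of beta was lower in both, at 66.1% and 65.5% of DMSO in A673 and 53.6% and 37.9% in SKNMC. That of alpha was lower mainly in SKNMC, at 59.5% and 41.6% of DMSO against 85.8% and 87.2% in A673. The ratio of EIF2S3 to EIF2S1 was level in A673, at 0.497, 0.521 and 0.472, and went from 2.25 to 3.49 and 4.61 in SKNMC. EIF2S3L, a close relative of EIF2S3, was at 3.03 FPKM in A673 and 1.08 FPKM in SKNMC with DMSO. EIF2A and EIF2D, which encode factors that can bring initiator tRNA to the ribosome without eIF2, had log2 fold changes between −0.47 and −0.01 and between 0.05 and 0.25.

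The 5 eIF2B genes, for the exchange factor that reloads eIF2, were lower than DMSO in 19 of their 20 values as deposited, EIF2B3 at 200 nM in A673 being the exception, and in 14 of 20 with the 75th percentile scaling. Beside this, 70.1% and 70.4% of all active genes in A673 and 73.0% and 80.8% in SKNMC were below DMSO as deposited. That share was not counted with the 75th percentile scaling. EIF2B4, for the delta subunit, was at 31.2, 15.6 and 14.9 FPKM in A673 and at 29.9, 16.3 and 12.8 FPKM in SKNMC. It was the eIF2B gene with the lowest levels against DMSO in both lines, with log2 fold changes of −0.96 and −1.01 in A673 and −0.83 and −1.16 in SKNMC. The medians over the 5 genes were −0.41, −0.32, −0.49 and −0.80 in the order A673 at 50 and 200 nM and SKNMC at 50 and 200 nM. Over all active genes they were −0.27, −0.40, −0.32 and −0.55, so the eIF2B median at 200 nM in A673 was the higher one. EIF2B3, for the gamma subunit, was at 29.4, 27.4 and 32.0 FPKM in A673 and at 27.3, 19.0 and 15.3 FPKM in SKNMC, so the lines stood apart under THZ1 but not with DMSO. EIF2B1 and EIF2B2, for the alpha and beta subunits, had log2 fold changes at 200 nM of −0.03 and −0.32 in A673 and of −0.43 and about −1 in SKNMC. EIF2B5 spans several listed genes in the annotation, EIF4G1 included, and reads of those genes could be assigned to it.

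The 4 eIF2alpha kinases, which slow initiation under stress by phosphorylating eIF2, did not share a pattern. EIF2AK3, for the endoplasmic reticulum sensor PERK, was at 3.43, 2.97 and 0.391 FPKM in A673 and at 3.79, 4.37 and 0.800 FPKM in SKNMC. It stayed near its DMSO level at 50 nM and was far lower at 200 nM in both lines, at 11.4% and 21.1% of the DMSO level. At these low levels the log2 fold change depends on the pseudocount, and the values for 200 nM THZ1 were −1.67 (A673) and −1.41 (SKNMC) with 1 FPKM added but −2.85 and −2.11 with 0.1 FPKM. EIF2AK4, for the amino acid sensor GCN2, had the opposite order of doses, at 14.0, 9.48 and 13.0 FPKM in A673 and 12.5, 6.91 and 9.47 FPKM in SKNMC. EIF2AK2, for the double-stranded RNA sensor PKR, was at 26.5, 21.9 and 19.8 FPKM in A673 and at 18.6, 13.2 and 11.1 FPKM in SKNMC. EIF2AK1, for the haem-regulated kinase HRI, was the most abundant of the 4, at 52.5, 57.2 and 62.0 FPKM in A673 and 61.4, 68.7 and 57.0 FPKM in SKNMC.

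The 14 members of the eIF3 role, the multisubunit scaffold of the small ribosomal subunit, comprised genes near or above DMSO and a few below it. Of the 13 active in both lines, 8, 7, 9 and 8 were higher than DMSO in the 4 comparisons as deposited, and the median log2 fold changes were 0.07, 0.13, 0.14 and 0.17. Over all 52 values of these genes, 32 were higher as deposited, 44 with the 75th percentile scaling and 3 with the ribosomal protein scaling. Between 70.1% and 80.8% of all active genes were below DMSO in the 4 comparisons as deposited. EIF3H, for a subunit with an MPN domain, was at 122, 151 and 152 FPKM in A673 and at 169, 212 and 251 FPKM in SKNMC. EIF3L was at 240, 260.1 and 271 FPKM in A673 and at 278, 365 and 383 FPKM in SKNMC, with 52.8% of its 100-base words shared with other annotated genes. Both stood above DMSO in all 4 THZ1 libraries as deposited, whereas with the ribosomal protein scaling EIF3H had log2 fold changes between −0.08 and 0.06 and EIF3L between −0.23 and 0.05.

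EIF3F, for the other MPN-domain subunit, was at 114, 118 and 130.4 FPKM in A673 and at 173, 214 and 218 FPKM in SKNMC. EIF3D, EIF3G, EIF3I and EIF3K stayed between −0.20 and 0.39 in all 4 comparisons.

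The lower eIF3 genes were EIF3J, EIF3M and, at 200 nM, EIF3A. EIF3J encodes a loosely bound subunit near the decoding centre, and was at 145, 103.5 and 103.3 FPKM in A673 and at 73.7, 44.8 and 29.6 FPKM in SKNMC. EIF3M was at 862, 777 and 688 FPKM in A673 and at 328, 246 and 152 FPKM in SKNMC, so the log2 fold change at 200 nM was −0.32 in A673 and −1.10 in SKNMC. EIF3A, for the largest core subunit, had log2 fold changes of −0.02 and −0.73 in A673 and −0.07 and −0.71 in SKNMC, a decrease at 200 nM alone. EIF3B, for the other core scaffold, was at 0.08 and −0.13 in A673 and 0.16 and −0.33 in SKNMC. EIF3C and EIF3CL cannot be separated well, since 92.3% of the 100-base words of the EIF3C transcript also occur in EIF3CL. They were listed at 3.93 and 0.135 FPKM in A673 with DMSO and at 3.99 and 0.0817 FPKM in SKNMC, far below the other eIF3 genes, although the eIF3c protein is a core subunit.

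Within eIF4F, the mRNA of the cap-binding protein was lower than DMSO in all 4 comparisons, while those of the scaffold EIF4G1 and the main helicase EIF4A1 stayed nearer DMSO. The second helicase, EIF4A2, was the lowest gene of this role at 50 nM in both lines and is described below. EIF4E lies at chr4:99792834-99851788 (minus strand) and was at 60.9, 38.3 and 21.8 FPKM in A673 and at 64.1, 41.4 and 24.2 FPKM in SKNMC with DMSO, 50 nM and 200 nM THZ1. The 2 lines held nearly the same level at each dose, and the level at 200 nM was 35.9% and 37.7% of DMSO. EIF4G1, the scaffold, was at 129.6, 150.4 and 122 FPKM in A673 and at 166, 170.2 and 142 FPKM in SKNMC. EIF4A1, the main helicase, was at 918, 956 and 981 FPKM in A673 and at 387, 376 and 329 FPKM in SKNMC, though every 100-base word of its transcript also occurs in other annotated genes. EIF4G2, for the eIF4G relative DAP5, was at 575, 654 and 683 FPKM in A673 and at 472, 479.5 and 495 FPKM in SKNMC. Within each library the ratio of EIF4G1 to EIF4E went from 2.13 to 3.93 and 5.61 in A673 and from 2.59 to 4.11 and 5.89 in SKNMC.

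The repressors that compete with eIF4G for eIF4E showed contrasting levels. EIF4EBP1, for the mTOR target 4E-BP1, was at 192, 214 and 254 FPKM in A673 and at 141, 125 and 171 FPKM in SKNMC. The ratio of EIF4EBP1 to EIF4E was accordingly 3.15, 5.57 and 11.6 in A673 and 2.20, 3.02 and 7.09 in SKNMC. EIF4EBP2 was lower than DMSO, at 29.2, 17.2 and 19.5 FPKM in A673 and at 28.2, 19.6 and 16.1 FPKM in SKNMC. EIF4EBP3, for the third 4E-BP, was between 1.57 and 3.62 FPKM in all 6 libraries and shares 69.2% of its 100-base words with a readthrough transcript. EIF4ENIF1, for the shuttling protein 4E-T that carries eIF4E into the nucleus and to processing bodies, lies at chr22:31832962-31892094 (minus strand). It was at 11.1, 5.56 and 2.41 FPKM in A673 and at 15.1, 8.19 and 2.96 FPKM in SKNMC. Its level was lower at each higher dose in both lines, with log2 fold changes of −0.89 and −1.83 in A673 and −0.81 and −2.03 in SKNMC.

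**Figure D3:**
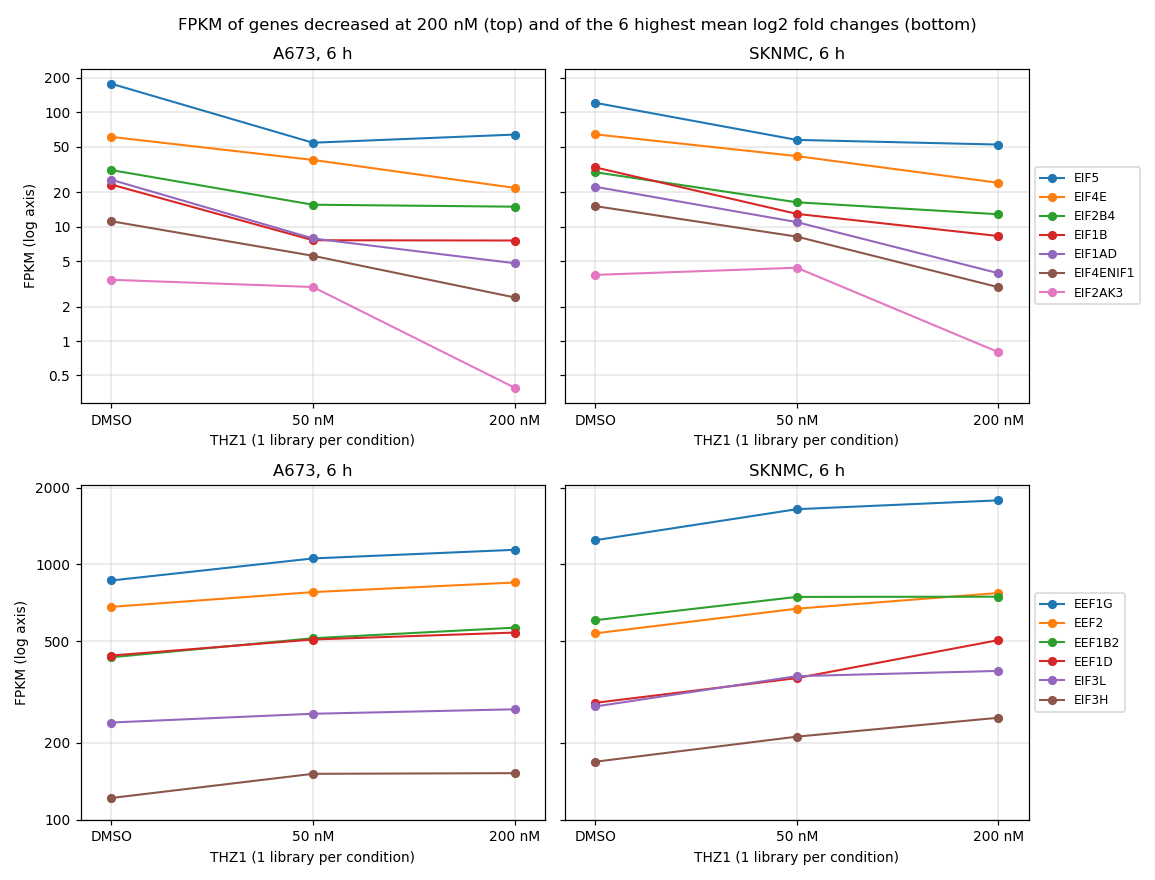
FPKM (log axis) in the 3 libraries of each line, 1 library per point, for the 7 genes at least 2-fold lower at 200 nM THZ1 in both lines (top) and for the 6 genes with the highest mean log2 fold change (bottom). EIF4E, EIF1AD and EIF4ENIF1 are lower at 200 than at 50 nM in both lines, EIF5 is at its lower level already at 50 nM, and EEF1G reaches 1141 FPKM in A673 and 1783 FPKM in SKNMC.

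The remaining eIF4 members included paralogues with different values. EIF4A2 was at 175, 86.8 and 106 FPKM in A673 and at 255, 159 and 235 FPKM in SKNMC. It was lowest at 50 nM in both lines and nearer to DMSO at 200 nM, and at 50 nM in A673 it lay on the 2-fold threshold at 49.7% of its DMSO level. The ratio of EIF4A1 to EIF4A2 was 5.26, 11.0 and 9.24 in A673 and 1.52, 2.36 and 1.40 in SKNMC. EIF4A3, the helicase of the exon junction complex, was at 63.8, 61.6 and 57.7 FPKM in A673 and at 66.8, 62.2 and 33.3 FPKM in SKNMC, with log2 fold changes between −0.14 and −0.05 except in the SKNMC library at 200 nM, where it was −0.98. EIF4B, an RNA-binding cofactor of eIF4A, was at 101, 70.1 and 59.1 FPKM in A673 and at 184, 181 and 180.1 FPKM in SKNMC, lower in A673 and level in SKNMC. EIF4H, a shorter relative of EIF4B, had log2 fold changes of 0.22 and −0.01 in A673 and −0.05 and −0.66 in SKNMC. EIF4E2, a cap-binding relative that does not bind eIF4G, was at 30.9, 30.4 and 28.6 FPKM in A673 and 36.4, 32.5 and 21.1 FPKM in SKNMC, so it exceeded EIF4E in A673 at 200 nM. EIF4G3, for another eIF4G scaffold, was at 20.2, 22.5 and 21.5 FPKM in A673 and at 30.9, 25.3 and 27.0 FPKM in SKNMC. EIF4E3 was at or below 1.24 FPKM in all 6 libraries and EIF4E1B was listed at 0 in all 6.

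**Figure D4:**
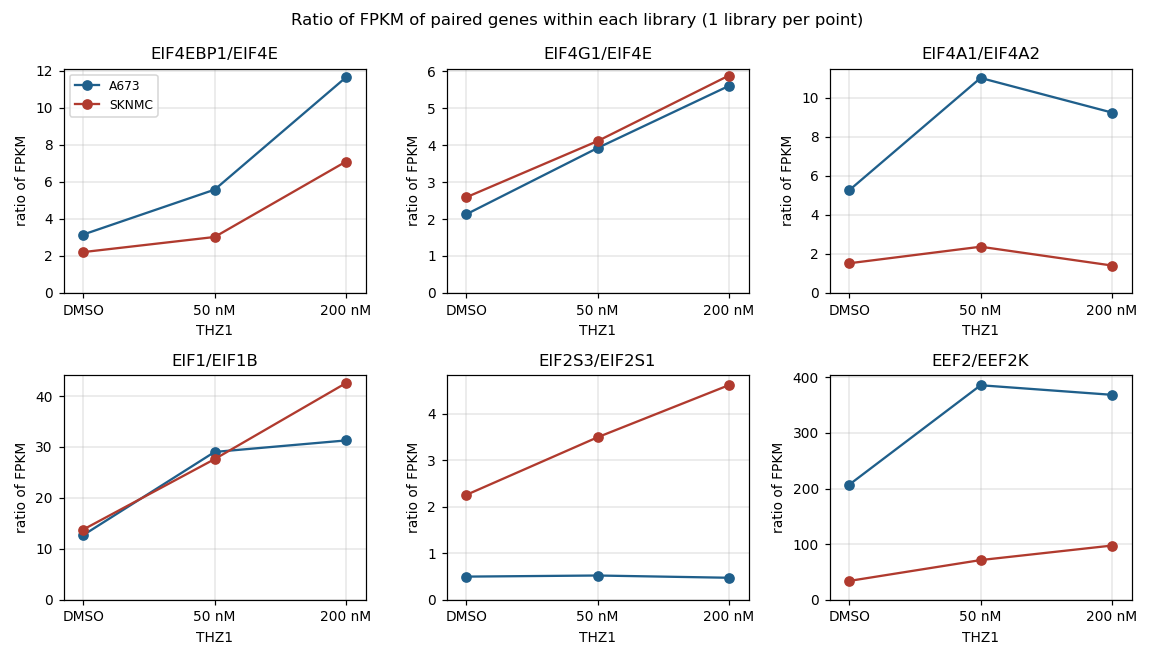
Ratio of the FPKM of paired genes within each library (vertical axis from 0) against the THZ1 dose (horizontal axis), 1 line per cell line and 1 library per point. The ratio of EIF4EBP1 to EIF4E reaches 11.6 in A673 and 7.09 in SKNMC at 200 nM, and the ratio of EIF1 to EIF1B reaches 31.3 and 42.5.

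The factors of subunit joining and eIF5A stayed mostly near DMSO. EIF5B, for the GTPase that joins the large subunit, had log2 fold changes of −0.04 and −0.38 in A673 and 0.22 and −0.50 in SKNMC. EIF6, which keeps free large subunits from joining, was at 0.14 in A673 and −0.41 in SKNMC at 200 nM. EIF5A, the hypusine-bearing factor that relieves stalled ribosomes, was at 606, 708 and 771 FPKM in A673 and at 346, 392 and 375 FPKM in SKNMC. Its paralogue EIF5A2 was at 5.50, 3.71 and 5.15 FPKM in A673 and 5.83, 4.04 and 4.47 FPKM in SKNMC, lowest at 50 nM in both lines. EIF5AL1 was at 1.73, 1.63 and 1.89 FPKM in A673 and shares sequence with EIF5A.

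The elongation factors included 4 of the 6 members with the highest mean log2 fold change as deposited, EEF1D at 0.41, EEF1G at 0.40, EEF2 at 0.34 and EEF1B2 at 0.31. EEF1G, for the gamma subunit of the eEF1B exchange complex, was at 865, 1056 and 1141 FPKM in A673 and at 1244, 1647 and 1783 FPKM in SKNMC, though 95.5% of the 100-base words of its transcript also occur in other annotated genes. EEF2, the translocase, was at 682, 780 and 850.0 FPKM in A673 and at 537, 671 and 773 FPKM in SKNMC. EEF1B2, for the subunit that carries the exchange activity, was at 433, 514 and 566 FPKM in A673 and at 605, 746 and 748 FPKM in SKNMC. All THZ1 libraries were above the DMSO library of their line for these genes as deposited, with EEF1G at 143% and EEF2 at 144% of DMSO in SKNMC at 200 nM, whereas with the ribosomal protein scaling all log2 fold changes of EEF2 and EEF1B2 were below 0. EEF1D, for another exchange subunit, was at 439.9, 508 and 541 FPKM in A673 and at 287, 359 and 505 FPKM in SKNMC, and its log2 fold change of 0.81 in SKNMC at 200 nM was the largest of any active member as deposited. It was the only member at least 1.5-fold higher in any comparison with DMSO as deposited.

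Not all EEF genes followed. EEF1E1, whose product is a scaffold of the multi-tRNA-synthetase complex rather than an exchange factor, was at 137, 94.2 and 81.2 FPKM in A673 and at 75.5, 42.2 and 27.3 FPKM in SKNMC. EEF2K, for the kinase that inhibits eEF2, was at 3.30, 2.02 and 2.31 FPKM in A673 and at 15.9, 9.41 and 7.93 FPKM in SKNMC. The ratio of EEF2 to EEF2K was thus 207, 386 and 368 in A673 and 33.8, 71.3 and 97.4 in SKNMC. EEF1A2, the muscle and neuron form of eEF1A, was between 0.700 and 1.16 FPKM in all 6 libraries and showed no large difference in the SKNMC libraries where EEF1A1 was listed at 0.

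The list of members described as TOP mRNAs in textbooks, EEF1A1, EEF1B2, EEF1D, EEF1G, EEF2, EIF3E, EIF3F and EIF3H, was higher than DMSO for 7 of 8 genes in both A673 comparisons and 7 of 7 in both SKNMC comparisons as deposited, but for 2, 0, 1 and 1 of them with the ribosomal protein scaling. Of all active genes, 3307 and 3278 of 11077 in A673 and 3215 and 2280 of 11896 in SKNMC were higher as deposited. This list was chosen with earlier results of these data known. The medians of the list were 0.20 and 0.32 in A673 and 0.32 and 0.52 in SKNMC as deposited. With the ribosomal protein scaling they were −0.05, −0.09, −0.03 and −0.07, as the ribosomal protein genes had medians of 0.21, 0.37, 0.37 and 0.60 themselves. With the 75th percentile scaling the medians were 0.45, 0.69, 0.61 and 1.09. The distance of this list from the median of all active genes was 0.47, 0.71, 0.64 and 1.07 as deposited. Both scalings multiply each library by a constant, so this distance could hardly change under them. EIF3E, for a subunit also known as INT6, was the exception in A673, at 249, 232 and 205 FPKM there and at 359, 394 and 405 FPKM in SKNMC.

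The bases at the annotated start show which members begin with such a tract and how these members' levels differed. Sequences are from RefSeq (GRCh38.p14), written 5′ to 3′ on the strand of the gene, from 10 bases before the annotated start to the base 20 from it. Capitals mark an unbroken run of C and T that begins with C at the start base and holds at least 4 further pyrimidines. A member was taken to have the tract if any of its entries did. EEF1B2 has a further entry without it, at chr2:206159599-206159628. Shown first are EEF1A1 and members that were higher than DMSO in all 4 comparisons. Next are members that were lower in all 4 although they have the tract. EIF1AD and EIF1B, which had the lowest mean log2 fold changes of all members, come last and have none.
EEF1A1, chr6:73521013-73521042, minus strand: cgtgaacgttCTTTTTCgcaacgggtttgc
EEF2, chr19:3985444-3985473, minus strand: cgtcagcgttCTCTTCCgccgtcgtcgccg
EEF1B2, chr2:206159885-206159914, plus strand: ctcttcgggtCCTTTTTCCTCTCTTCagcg
EIF3F, chr11:7987327-7987356, plus strand: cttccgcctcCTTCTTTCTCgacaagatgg
EIF3K, chr19:38619178-38619207, plus strand: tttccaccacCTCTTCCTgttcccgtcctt
EIF2D, chr1:206612446-206612475, minus strand: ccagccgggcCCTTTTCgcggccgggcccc
EIF4A2, chr3:186783567-186783596, plus strand: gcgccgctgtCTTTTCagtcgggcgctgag
EIF3M, chr11:32583821-32583850, plus strand: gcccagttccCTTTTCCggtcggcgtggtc
EIF4B, chr12:53006446-53006475, plus strand: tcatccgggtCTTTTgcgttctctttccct
EIF2S3, chrX:24054946-24054975, plus strand: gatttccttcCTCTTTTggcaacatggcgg
EIF1AD, chr11:66002138-66002167, minus strand: cagcgccggaagtacggttttcggagggat
EIF1B, chr3:40309697-40309726, plus strand: cattttgtgcgagaagccgcagcgccgcct

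A tract of this kind was found for 12 members, in 17.6% of the 68 RefSeq entries of members and in 4.07% of all 35116 entries. The definition was chosen after the sequences were seen, 12 members had no entry, and a start annotated some bases away from the start used in these cells would hide or create a tract. Of the 8 genes of the textbook list, EEF1A1, EEF1B2, EEF2 and EIF3F had the tract by this definition, EEF1G had an entry without it, and EEF1D, EIF3E and EIF3H were not read. Of the 11 members with a tract that were active in both lines and had values in all 6 libraries, 5 were higher than DMSO in all 4 comparisons as deposited (EEF2, EEF1B2, EIF3K, EIF3F and EIF2D) and 6 were lower in all 4 (EIF3M, EIF4A2, EIF4B, EIF2S3, EIF3D and EIF2A). Of the 36 without a tract, 5 were higher in all 4 and 21 lower in all 4, beside 10.0% and 52.9% of all genes active in both lines. Over all genes active in both lines with an entry, the 637 with a tract had median log2 fold changes of −0.19 and −0.21 in A673 and −0.22 and −0.43 in SKNMC, and the 7411 without had −0.27, −0.42, −0.31 and −0.60. The 12 with a tract were also the more abundant, at a median of 149 FPKM against 40.8 FPKM over the DMSO libraries. Members differed by level in general: across active members, Spearman's rho between the DMSO level and the log2 fold change came to 0.48 and 0.37 in A673 and 0.47 and 0.49 in SKNMC, against 0.20, 0.17, 0.17 and 0.06 across all active genes. These are descriptions across genes of the same libraries, and the DMSO level enters both measures.

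Comparing the doses directly, EIF2AK3 was the only member at least 2-fold lower at 200 than at 50 nM in A673, 1 of 59 active members against 7.44% of active genes. In SKNMC there were 3 of 58, EIF1AD, EIF2AK3 and EIF4ENIF1, against 8.39%. No member was at least 1.5-fold higher at 200 than at 50 nM, against 2.33% of active genes in A673 and 3.77% in SKNMC, and 5 members in A673 (against 18.0%) and 12 in SKNMC (against 22.1%) were at least 1.5-fold lower. The log2 difference of EIF2AK3 between the doses was −1.51 in A673 and −1.58 in SKNMC. EIF4ENIF1 differed by −0.95 and −1.22. EIF4E was also lower at the higher dose, by −0.78 and −0.75. In A673, 24 members (40.7%, against 51.7% of all active genes) were lower and 35 higher at 200 than at 50 nM as deposited, with a median difference of 0.06 against −0.02 for all active genes. In SKNMC, 39 (67.2%, against 62.0%) were lower and 19 higher, and the median of −0.14 was that of all active genes. This balance turned with the scaling, as 15 members in A673 and 22 in SKNMC were lower with the 75th percentile scaling and 43 and 52 with the ribosomal protein scaling. The scalings shift all genes of a library, and the share of all active genes was not counted under them, so the turn is not particular to the members. EIF5 and EIF1B in A673 and EIF4A2, EIF2AK4 and EIF5A2 in both lines did not go on decreasing from 50 to 200 nM by more than 0.01.

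The lines gave similar values member by member. Spearman's rho between the log2 fold changes of A673 and SKNMC was 0.85 at 50 nM and 0.80 at 200 nM over the 57 members, against 0.84 and 0.82 over the 10574 genes active in both lines. The members that stood farthest from this relation, by the mean log2 fold change over the 2 doses in A673 minus that in SKNMC, were EIF2S1 at 0.78, EIF2B3 at 0.66, EIF4B at −0.61, EIF2S2 at 0.53 and EIF3M at 0.52. All of these but EIF4B were lower in SKNMC. With 1 library per condition none of these differences could be tested.

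**Figure D5:**
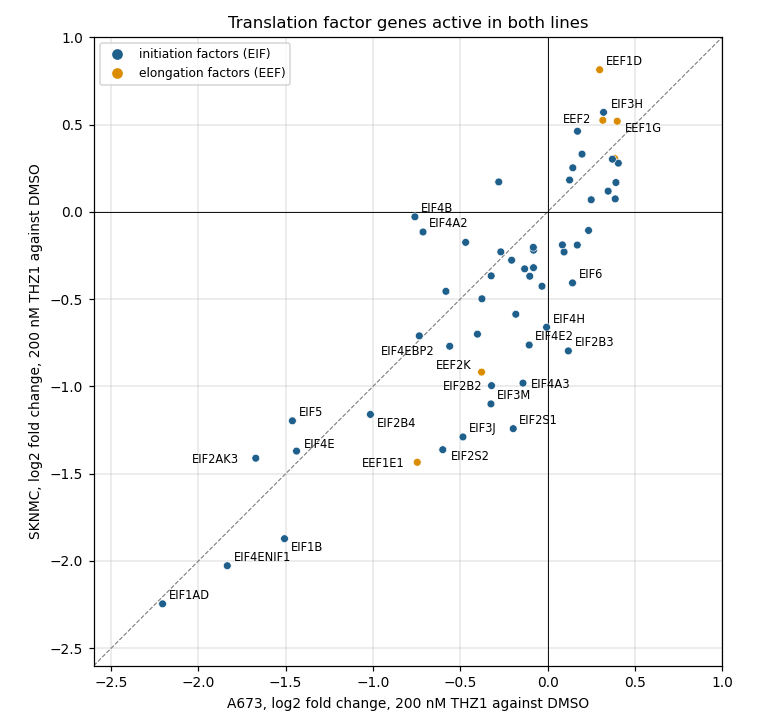
Log2 fold change at 200 nM THZ1 against DMSO in A673 (horizontal axis) and SKNMC (vertical axis) of the 57 translation factor genes active in both lines, 1 point per gene; the dashed line marks equal values. EIF1AD lies at −2.20 and −2.25, EIF2S1 at −0.20 and −1.24, EIF4B at −0.76 and −0.03, and EEF1D at 0.30 and 0.81.

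With DMSO alone, the lines differed at least 2-fold in 5 of the 60 members active in either. EIF3M, EIF4A1 and EIF5AL1 were higher in A673, against 8.42% of genes active in either line, and EEF2K and EIF2S3 were lower in A673, against 15.0%. At 1.5-fold, 10 were higher in A673, against 17.6%, and 8 lower, against 26.6%. EIF3M stood at 862 FPKM in A673 and 328 FPKM in SKNMC, and EIF2S3 at 76.8 and 199.5 FPKM. As EIF2S1 was higher in A673 at 155 against 88.6 FPKM, the mRNAs of the alpha and gamma subunits of the same trimer stood in opposite order in the lines.

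The other genes of the pathway, a list of 40 genes for termination, poly(A) binding, helicases, mTOR and MNK kinases, eIF2alpha phosphatase, modification enzymes and mitochondrial factors, had lower medians than the members. At least 2-fold lower were 3 of 39 and 5 of 39 active genes at 50 and 200 nM in A673 and 5 of 40 and 11 of 40 in SKNMC, beside 15.9%, 25.3%, 15.8% and 27.3% of all active genes, and none of the medians of −0.30, −0.45, −0.26 and −0.74 was above that of the members. The lowest log2 fold change was that of PPP1R15A in 3 comparisons and of GSPT2 in A673 at 200 nM. PPP1R15A encodes GADD34, the stress-induced subunit of the eIF2alpha phosphatase, and was at 24.9, 4.75 and 6.28 FPKM in A673 and at 10.7, 3.06 and 3.38 FPKM in SKNMC. Its constitutive counterpart PPP1R15B was also lower, at 21.6, 11.2 and 10.8 FPKM in A673 and 26.1, 12.8 and 11.2 FPKM in SKNMC. Among the enzymes that modify members, DPH5, which acts in the making of the diphthamide on eEF2, was at 23.6, 8.66 and 12.1 FPKM in A673 and 27.7, 11.8 and 16.0 FPKM in SKNMC, whereas DHPS, the first enzyme of hypusine formation on eIF5A, was at 42.5, 40.6 and 49.3 FPKM in A673 and 29.9, 28.5 and 37.7 FPKM in SKNMC. GSPT2, a paralogue of the release factor GSPT1, was at 5.36, 3.88 and 0.778 FPKM in A673 and at 14.0, 12.2 and 4.67 FPKM in SKNMC, lower mainly at 200 nM. PABPC1, the cytoplasmic poly(A)-binding protein that contacts eIF4G and whose mRNA has a TOP tract, was at 455, 476 and 485 FPKM in A673 and at 593, 744 and 967 FPKM in SKNMC.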

How the data were processed

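RNA-seq libraries of A673 and SKNMC (TruSeq, 100-bp paired-end reads) were aligned by the authors with STAR to hg19 and the deposited FPKM values were made per gene on Ensembl 75, with StringTie per the study's methods and Cufflinks per the submitters' processing notes. The table's title speaks of averages, but the sample labels hold 1 library for each condition. Its 4 columns of the authors' own log2 fold changes were not used. Depth is unknown from FPKM, so no counting interval is given. Groups came from the sample labels. A pseudocount of 1 FPKM was used, active meant above 1 FPKM with DMSO, and calls were made at 2-fold and 1.5-fold with no test. EEF1A1 was left out of comparisons using the SKNMC THZ1 libraries, and the level of the Y-linked EIF1AY is not given. Values in all libraries are given for members at least 2-fold changed, the most abundant, paralogue pairs, the extremes of the mean log2 fold change, the largest line differences, TOP genes and eIF2alpha kinases. Members, roles and lists were chosen with earlier results of these data known. Sharing of 100-base words was taken from GENCODE transcripts on GRCh37. The scripts, in Python 3.11.15 with pandas 2.3.3, numpy 2.4.6 and scipy 1.17.1, were tested on simulated data. Alternatives were the pseudocount, the activity threshold, the library scaling and the fold threshold.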

Additional observations from a re-analysis of the deposited data

Results flagged for a closer look

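With THZ1, 3 of the 57 members active in both lines, EEF1A1 left out, stood on opposite sides of DMSO in the lines at both doses. This difference was not tested, and the share of all genes that split in this way was not counted. EIF4A1 was higher than DMSO in A673 (log2 fold changes 0.06 and 0.09) and lower in SKNMC (−0.04 and −0.23), a difference of 0.21 in the mean over the doses. EIF4G3, for a second eIF4G scaffold, was at 0.15 and 0.08 in A673 and at −0.28 and −0.19 in SKNMC, a difference of 0.35. EIF3E was lower in A673 (−0.10 and −0.28) and higher in SKNMC (0.13 and 0.17), a difference of −0.34. The opposite signs were seen as deposited and held for none of the 3 when libraries were divided by the 75th percentile of active genes, where all these values were above 0, or by the ribosomal protein median, where all were below 0.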

How the results depend on the processing

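No paired analysis was possible because each condition had 1 library, numbered 1 in every group. Dividing libraries by the 75th percentile of active genes turned the members' median log2 fold change to 0.15 and 0.24 in A673 and to 0.12 and 0.16 in SKNMC (50 and 200 nM), set the median of the 200 against 50 nM difference at 0.18 in A673 and 0.12 in SKNMC, and gave 1 and 4 members at least 2-fold lower in SKNMC at 50 and 200 nM. Dividing by the ribosomal protein median gave −0.34, −0.48, −0.46 and −0.85 for the medians, −0.10 and −0.36 for the dose difference, and 11, 12 and 24 members at least 2-fold lower at 200 nM in A673 and at 50 and 200 nM in SKNMC. The scalings shift all genes of a library, so these counts alone do not set the members apart. All active genes had medians of −0.06, −0.07, −0.07 and −0.07 with the first scaling and −0.48, −0.72, −0.61 and −1.01 with the second. As deposited, the counts at 1.5-fold were 9, 12, 13 and 22, beside 31.8%, 41.1%, 33.5% and 48.0% of all active genes. Of 118 log2 fold changes of named members, 42 crossed the 1.5-fold threshold in size with the 75th percentile scaling, 18 with the ribosomal protein scaling, 2 with a common sum without EEF1A1 and 0 with a pseudocount of 0.1, which still moved EIF2AK3 at 200 nM to −2.85 in A673 and −2.11 in SKNMC. Which scaling is right depends on RNA per cell, which these files do not hold. Depth and replicate spread are unknown, so small differences cannot be told from library noise.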

Other observations

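The lincRNA gene EIF3J-AS1 shares the start of its name with the members but is not protein-coding. It lies at chr15:44819454-44829121 (hg19), with 133 bases between the higher coordinate of its span and the start of EIF3J. It was at 2.42, 0.358 and 0.779 FPKM in A673 with DMSO, 50 nM and 200 nM THZ1 and at 2.92, 0.272 and 0.244 FPKM in SKNMC, so all 4 THZ1 libraries were below both DMSO libraries. Its log2 fold changes were −1.33 and −0.94 in A673 and −1.62 and −1.66 in SKNMC, beside −0.48 and −0.48, and −0.71 and −1.29, for EIF3J. It was chosen after its values were seen.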
